A study of Mus musculus with 16 samples.

Results

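Genes that cut, protect and cross-link the extracellular matrix were followed in mouse liver: matrix metalloproteinases (MMPs), ADAMTS proteases, ADAMTS-like proteins, tissue inhibitors of metalloproteinases (TIMPs) and lysyl oxidases. They were the protein-coding genes of the deposited table whose symbol is Mmp, Adamts or Adamtsl followed by a number, Timp with a digit, or Lox or Loxl1 to Loxl4. This gave 46 of 23258 genes in the table, of which 15467 are protein coding. The 46 are 18 MMPs, 15 ADAMTS proteases, 5 ADAMTS-like genes, 3 TIMPs and 5 lysyl oxidases. After a filter on low counts 39 of the 46 were tested. The 7 that did not pass were Adamts3, Adamts8, Adamts16, Mmp3, Mmp7, Mmp21 and Mmp25, whose highest group mean was 0.477 CPM (counts scaled to library totals), in Mmp7.

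The livers came from C57BL/6 mice that carried a liver-specific knockout of the microRNA miR-33 (KO) or were wild type (WT), fed a high-fat diet (HFD) or chow. There were 5 HFD KO, 4 HFD WT, 4 chow KO and 3 chow WT libraries of ribosomal RNA-depleted total RNA, and the question posed by the series is what loss of hepatic miR-33 does to liver RNA on either diet. The estimated counts of a library summed to 20993930 to 29469645 in HFD KO, 16149911 to 25823475 in HFD WT, 15888436 to 26821573 in chow KO and 17502937 to 22902669 in chow WT. The sources used here do not give age, sex, diet duration, batch, the alleles that wild-type mice carried or whether each library is a separate animal, so p-values speak of the spread among libraries, which may be technical. The deposited name of the table includes Alb-Cre, a recombinase driven by the albumin promoter of hepatocytes, so genes made by other liver cells are read here in a model that targets hepatocytes. miR-33 itself was not analysed here, and no value below checks its loss. Number series in the sample titles differ between diets, so diet and number series cannot be told apart. The tissue label was checked against 8 hepatocyte markers, whose summed level was 62500 to 79600 CPM in HFD KO, 62300 to 77900 CPM in HFD WT, 81700 to 93900 CPM in chow KO and 83800 to 91200 CPM in chow WT, with none at 0. On the second principal component of all genes tested, HFD KO 1 lay at 39.2 and the other 15 libraries between -10.7 and 3.1, while on the third component chow WT 3 lay at 24.7 and the others between -15.4 and 13.4. The counts that follow are therefore also given without those 2 libraries.

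MMPs are zinc-dependent proteases that are made as inactive precursors and together can degrade nearly every matrix protein, and TIMPs block them by occupying the catalytic site. ADAMTS proteases trim procollagens, cleave proteoglycans such as versican and aggrecan, or cut von Willebrand factor, whereas ADAMTS-like proteins share their ancillary domains but lack a protease domain. Lysyl oxidases oxidise lysines of collagen and elastin so that fibres cross-link, which makes them harder to digest. In injured liver, stellate cells that turn into myofibroblasts and infiltrating macrophages are known sources of many of these proteins.

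Per exon length, Mmp19 and Mmp15 had the highest means in every group. Mmp19, a broadly expressed secreted MMP, had the highest level of the 46 genes, with 23 ± 2.43 CPM per kilobase of exon in HFD KO, 22.5 ± 2.51 in HFD WT, 23.7 ± 2.24 in chow KO and 24.3 ± 2.25 in chow WT (SD, n = 5, 4, 4 and 3). The membrane-type MMP Mmp15 came second by mean in all 4 groups, at 13.8 ± 1.71 CPM per kilobase in HFD KO, 13.1 ± 1.86 in HFD WT, 7.94 ± 0.771 in chow KO and 8.43 ± 1.21 in chow WT. Timp3 and then Timp2 came next in both HFD groups, while Mmp14 came next in both chow groups, although the SDs of these 3 genes overlapped for most neighbours. In both chow groups the SDs of Mmp14 and Mmp15 overlapped too, with Mmp14 at 6.6 ± 0.614 in chow KO and 7.09 ± 1.56 in chow WT. Summed over each class, TIMPs reached 13.9 ± 1.81 CPM per kilobase in HFD KO, 17.3 ± 3.25 in HFD WT, 8.12 ± 1.07 in chow KO and 6.95 ± 1.13 in chow WT. The lysyl oxidase sum was 3.97 ± 0.67 CPM per kilobase in HFD KO, 5.01 ± 0.82 in HFD WT, 1.44 ± 0.317 in chow KO and 1.33 ± 0.352 in chow WT, and in each genotype every HFD library exceeded every chow library. The 18 MMPs summed to 48.8 ± 4.0 CPM per kilobase in HFD KO, 50.3 ± 2.95 in HFD WT, 40.4 ± 3.17 in chow KO and 41.7 ± 2.37 in chow WT, with Mmp19 the largest term in each.

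**Figure D1:**
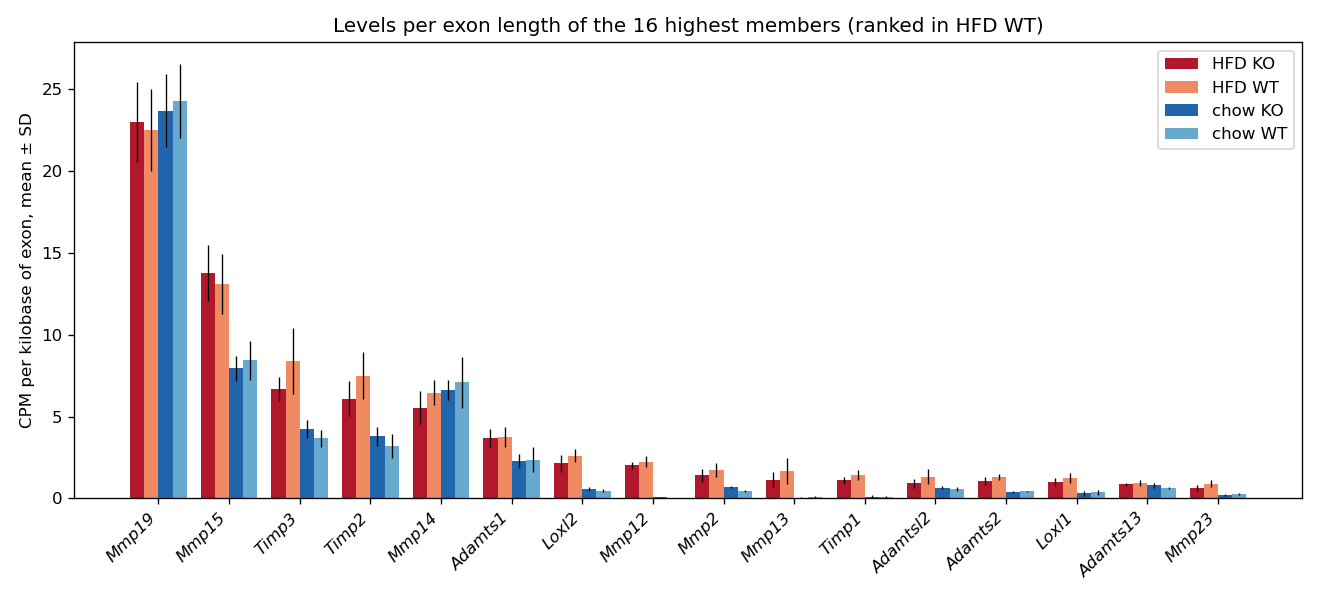
Mean level per exon length (CPM per kilobase, bars) ± SD (lines) of the 16 highest members in HFD KO (n = 5), HFD WT (n = 4), chow KO (n = 4) and chow WT (n = 3). Mmp19 has the highest bar in each group, and the bars of Timp3, Timp2, Loxl2, Mmp12 and Timp1 are taller in the HFD groups than in the chow groups.

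On high-fat diet the matrix-remodelling genes as a group were higher than on chow in both genotypes. In knockout livers 21 of the 39 genes tested (53.8%) rose and 1 fell by edgeR's quasi-likelihood test, where 17.4% of all 16830 genes tested rose and 16.2% fell. In wild-type livers 24 of 39 (61.5%) rose and none fell, where 15.2% of all genes rose and 14.2% fell. The median log2 fold change of the 39 genes was 0.72 in knockout, beside -0.01 over all genes, and 1.21 in wild type, beside -0.02 over all genes. Of the 21 genes that rose in knockout, 19 also rose in wild type, which is 90.5% of the knockout list and 79.2% of the wild-type list. Without HFD KO 1 and chow WT 3, 22 genes rose in knockout and 18 in wild type, where the calls of Loxl3, Adamts1, Adamts13, Adamtsl1, Mmp17 and Mmp27 were lost. The lone fall was Mmp11 in knockout. For the absence of falls in wild type, edgeR gave 2 members below 0 at an unadjusted p under 0.05 (Mmp11 and Mmp9), DESeq2 called 0 and limma voom called 1.

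**Figure D2:**
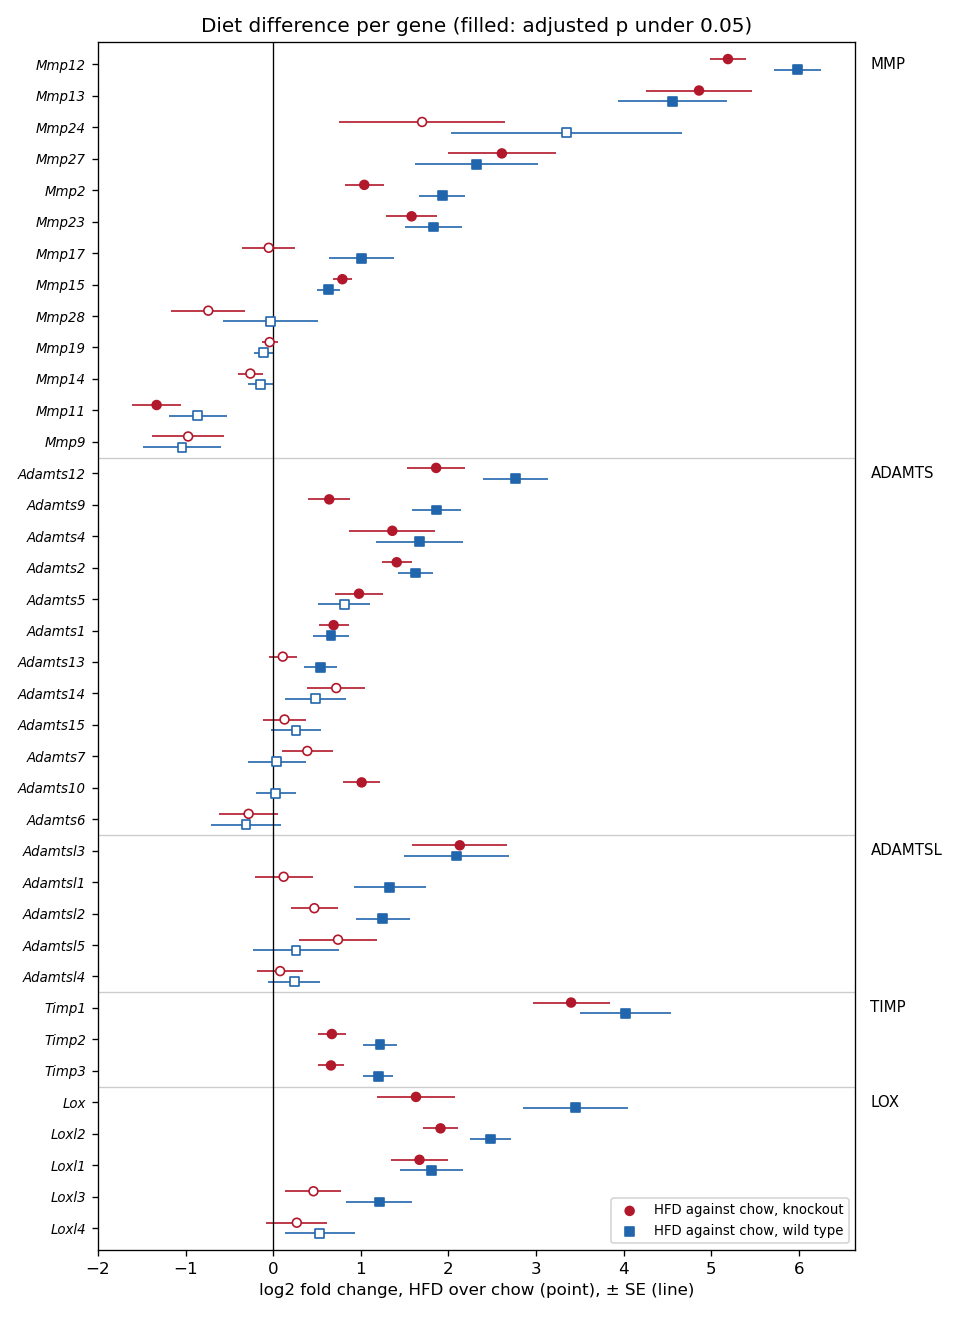
Log2 fold change of HFD over chow (horizontal axis) ± SE for 38 of the 39 genes tested, in knockout (circles, above) and wild type (squares), grouped by class and ordered by the wild-type value. Filled symbols passed an adjusted p of 0.05, and Mmp8 is left out because its chow WT counts were all 0. Mmp12, Mmp13 and Timp1 lie farthest to the right, and Mmp9 and Mmp11 lie left of 0.

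Mmp12, or macrophage elastase, cleaves elastin and is made mainly by macrophages. It had the largest fitted diet difference of the members tested, Mmp8 aside, in each genotype. Mmp12 had 13.4, 15, 13.3, 17.3 and 13.6 CPM in HFD KO livers, against 0.543, 0.302, 0.212 and 0.486 CPM in chow KO livers. In wild type the values were 14.5, 17.6, 14 and 19.1 CPM on HFD, against 0.376, 0.175 and 0.178 CPM on chow. Every HFD library thus exceeded every chow library, and the HFD libraries lay close together. The log2 fold change was 5.19 ± 0.21 (SE) in knockout (adjusted p = 4.3e-11, edgeR) and 5.98 ± 0.27 in wild type (adjusted p = 1.6e-10, edgeR).

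Mmp13, the main interstitial collagenase of rodents, followed. Its level was 1.08, 3.91, 3.92, 3.59 and 2.88 CPM in HFD KO livers, against 0.163, 0.172, 0.0 and 0.0442 CPM in chow KO livers. Wild types had 4.66, 2.16, 3.71 and 7.17 CPM on HFD, against 0.188, 0.0582 and 0.296 CPM on chow. The groups did not overlap by diet, although the HFD values spread more than those of Mmp12, with HFD KO 1 the lowest. Log2 fold changes were 4.86 ± 0.60 in knockout (adjusted p = 1.3e-05, edgeR) and 4.56 ± 0.62 in wild type (adjusted p = 4.7e-05, edgeR). Their size rests on few counts, with 8 Mmp13 counts in all chow KO libraries together and 10 in chow WT.

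Mmp12 and Mmp13 belong to a run of 6 Mmp genes within 427 kb on mouse chromosome 9 (GRCm38, chr9:7272514-7699585), in the order Mmp13, Mmp12, Mmp3, Mmp8, Mmp27 and Mmp7. Mmp8, the neutrophil collagenase, had 0.344, 0.383, 0.421 and 0.691 CPM in HFD WT livers, against a count of 0 in all 3 chow WT libraries. Against a floor of 3 counts in each chow WT library it was at least 2.79-fold higher, and it passed the test. That call rests on 9 to 13 counts per HFD WT library. Mmp8 was tested in only 11 of the 23 alternatives, where the wild-type call held. In knockouts Mmp8 had 0.0936, 0.204, 0.121, 0.314 and 0.297 CPM on HFD, against 0.0, 0.129, 0.0 and 0.0442 CPM on chow, so the groups overlapped. Its log2 fold change there was 1.95 ± 0.72 (adjusted p = 0.047, edgeR), a call that was lost without chow KO 1 (adjusted p = 0.119), without chow KO 3 (adjusted p = 0.0979), in DESeq2 (adjusted p = 0.0618) and with no filter (adjusted p = 0.0567).

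Mmp27, a little-studied secreted MMP, had 0.229, 1.39, 1.09 and 0.903 CPM in HFD WT livers, against 0.329, 0.0 and 0.178 CPM in chow WT livers. HFD WT 1 lay inside the chow range. Knockouts had 0.698 to 1.12 CPM on HFD, against 0.0431 to 0.425 CPM on chow, with no overlap. Log2 fold changes were 2.61 ± 0.62 in knockout (adjusted p = 0.0033, edgeR) and 2.32 ± 0.70 in wild type (adjusted p = 0.018, edgeR). The wild-type call was lost without HFD WT 2, chow WT 2 or chow WT 3, with adjusted p of 0.0575, 0.0749 and 0.0532, and by voom (adjusted p = 0.0511). Mmp3 (stromelysin 1) and Mmp7 (matrilysin) did not pass the filter. Mmp7 nonetheless reached 1.08 CPM in HFD WT 2 and 0.584 CPM in HFD WT 4, with the other HFD WT libraries at 0.0764 and 0.168 CPM and chow WT at 0.0941, 0.291 and 0.118 CPM.

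Promoter windows from RefSeq (build GRCm38.p6, 250 bases before to 50 after an annotated start) were found for 29 of the 46 genes, as 32 windows of 300 bases. They were searched on both strands for the letters TGANTCA, where N is any base, and for TATAAA, the TATA box. TGANTCA is a looser form of the core that AP-1 factors bind and that is textbook for MMP promoters. The shares below therefore count any base at N. The motifs did not overlap. TGANTCA was in 4 of the 32 windows (12.5%), against 7.81% of 32851 mouse windows, and TATAAA in 8 of 32 (25%), against 13.6%. All 4 windows with TGANTCA belong to the chromosome 9 run: Mmp13, Mmp12, Mmp3 and Mmp7. Its first base lay 35 bases before the start in Mmp13, 44 in Mmp12, 46 in Mmp3 and 63 in Mmp7, whereas the windows of Mmp8 and Mmp27 and a second window each of Mmp12 and Mmp7 lacked it. A match is a description of the letters and not a binding site. The windows of Mmp13 and Mmp12, which rose on HFD, and of Mmp3, which did not pass the filter, are shown on the plus strand with both motifs in capitals, to set genes with the same letters and different levels side by side.
Mmp13, chr9:7272264-7272563: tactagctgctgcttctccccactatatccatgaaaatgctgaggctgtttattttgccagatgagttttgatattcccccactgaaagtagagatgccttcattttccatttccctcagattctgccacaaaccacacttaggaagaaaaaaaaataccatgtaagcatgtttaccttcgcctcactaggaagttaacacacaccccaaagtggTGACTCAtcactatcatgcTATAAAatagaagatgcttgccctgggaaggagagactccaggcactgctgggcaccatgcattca
Mmp12, chr9:7347124-7347423: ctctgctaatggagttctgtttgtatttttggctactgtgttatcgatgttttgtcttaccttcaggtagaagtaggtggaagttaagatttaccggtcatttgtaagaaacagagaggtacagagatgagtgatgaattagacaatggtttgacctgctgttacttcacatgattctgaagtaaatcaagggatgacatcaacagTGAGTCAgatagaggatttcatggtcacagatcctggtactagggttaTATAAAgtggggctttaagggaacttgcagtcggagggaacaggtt
Mmp3, chr9:7445572-7445871: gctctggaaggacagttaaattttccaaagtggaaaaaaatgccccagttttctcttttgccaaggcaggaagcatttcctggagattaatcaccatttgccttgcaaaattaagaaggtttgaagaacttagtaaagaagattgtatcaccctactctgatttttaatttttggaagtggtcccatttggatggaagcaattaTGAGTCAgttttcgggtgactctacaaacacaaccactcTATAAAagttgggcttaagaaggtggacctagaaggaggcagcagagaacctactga

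**Figure D3:**
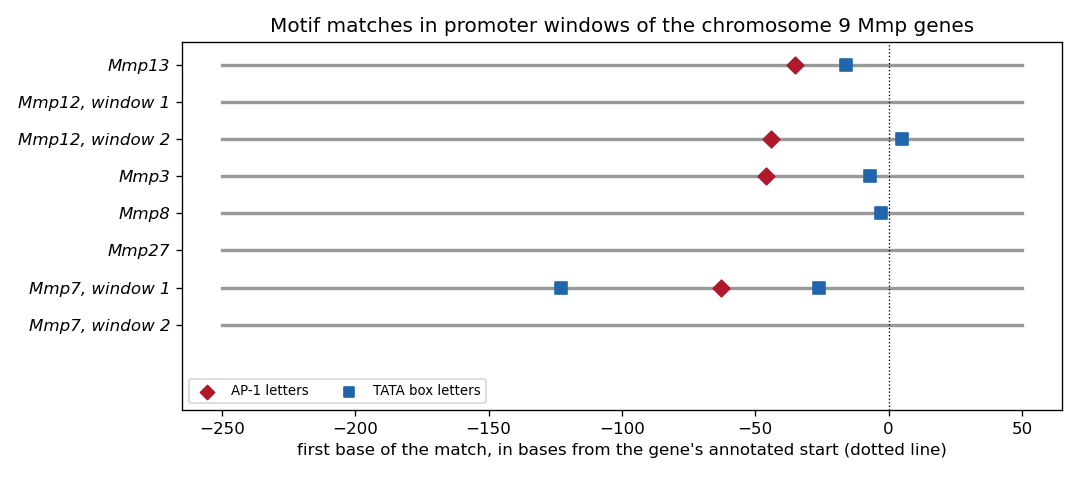
Position of the first base of each AP-1 match (diamonds) and TATA box match (squares) in the 8 promoter windows (grey lines) of the 6 chromosome 9 Mmp genes, in bases from the annotated start. Mmp13, Mmp12, Mmp3 and Mmp7 each have 1 window with an AP-1 match, between 63 and 35 bases before the start.

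Of the gelatinases, Mmp2 rose in each genotype and Mmp9 did not pass the test. Mmp2 (GRCm38, chr8:92827291-92853420, plus strand) is gelatinase A, a product of stellate cells and fibroblasts that digests denatured collagen and type IV collagen. It had 3.93, 3.67, 3.82, 6.91 and 5.29 CPM in HFD KO livers, against 2.06, 2.24, 2.69 and 2.25 CPM in chow KO livers. Wild-type livers had 3.78, 7.13, 6.11 and 6.22 CPM on HFD, against 1.46, 1.69 and 1.42 CPM on chow. All HFD libraries lay above all chow libraries. Mmp2 rose by 1.04 ± 0.22 on the log2 scale in knockout (adjusted p = 0.0014, edgeR) and by 1.93 ± 0.26 in wild type (adjusted p = 4.0e-05, edgeR). Mmp9, gelatinase B, common in neutrophils and macrophages, had a log2 fold change of -0.97 ± 0.41 in knockout (adjusted p = 0.080, edgeR) and -1.04 ± 0.45 in wild type (adjusted p = 0.092, edgeR). Its wild-type values were 0.573, 0.765, 0.337 and 0.478 CPM on HFD, against 0.988, 1.69 and 0.71 CPM on chow, and these groups overlapped. Without chow KO 3 the knockout difference of Mmp9 passed (log2 fold change -1.18, adjusted p = 0.0408).

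Among membrane-type MMPs, Mmp15 rose and Mmp14 did not pass the test. Mmp15, an activator of other proteases at the cell surface, had 76.4, 60.3, 71.3, 84.8 and 78.9 CPM in HFD KO livers, against 48.7, 41, 39.2 and 42.6 CPM in chow KO livers, again without overlap. In wild type the values were 58.1, 78, 67.1 and 79.5 CPM on HFD, against 49.4, 38 and 49.1 CPM on chow. Log2 fold changes were 0.79 ± 0.11 in knockout (adjusted p = 5.0e-05, edgeR) and 0.63 ± 0.13 in wild type (adjusted p = 0.0014, edgeR). Mmp14, which activates the Mmp2 precursor together with Timp2, averaged 32.9 ± 6.01 CPM in HFD KO and 39.4 ± 3.66 CPM in chow KO, and 38.5 ± 4.58 CPM in HFD WT and 42.3 ± 9.32 CPM in chow WT (SD). Its log2 fold changes were -0.26 ± 0.14 in knockout (adjusted p = 0.15, edgeR) and -0.14 ± 0.15 in wild type (adjusted p = 0.54, edgeR). Mmp17 and Mmp24 were the other membrane-type genes tested. Mmp17, which is held by a lipid anchor, had a log2 fold change of 1.01 ± 0.37 in wild type (adjusted p = 0.048, edgeR), with adjusted p between 0.055 and 0.203 in 10 of 16 single-library omissions, the largest without chow WT 3. The Mmp17 call was also lost with no filter (adjusted p = 0.0618) and with only the compared groups (adjusted p = 0.0934), and its log2 fold change in knockout was -0.05 ± 0.30. Mmp24, known mainly from the nervous system, did not pass in either genotype.

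Of the remaining MMPs, Mmp23 rose in both genotypes, Mmp11 fell in knockout, and Mmp19 and Mmp28 did not pass. Mmp23, a membrane-anchored MMP, had 1.57, 2.02, 2.02 and 2.76 CPM in HFD WT livers, against 0.517, 0.757 and 0.473 CPM in chow WT livers, a log2 fold change of 1.83 ± 0.32 (adjusted p = 3.9e-04, edgeR), and rose by 1.58 ± 0.29 in knockout (adjusted p = 4.4e-04, edgeR). Mmp11, stromelysin 3, had 0.562, 0.442, 0.455, 0.558 and 0.859 CPM in HFD KO livers, against 1.41, 1.29, 1.98 and 1.19 CPM in chow KO livers. Every HFD library was below every chow library, and the log2 fold change was -1.33 ± 0.28 (adjusted p = 0.0014, edgeR). In wild type it had 0.459, 0.626, 0.463 and 0.903 CPM on HFD, against 0.847, 1.16 and 1.3 CPM on chow, with a log2 fold change of -0.86 ± 0.33 (adjusted p = 0.058, edgeR) that passed without HFD KO 5, HFD WT 4 or chow WT 1 (adjusted p = 0.0492, 0.0285 and 0.0471) and by voom (adjusted p = 0.0481). Mmp11 overlaps Chchd10 on the other strand, a gene with 166 CPM in HFD KO, 167 in HFD WT, 336 in chow KO and 331 in chow WT. The sources used here do not say whether counting used strand, so reads of the pair cannot be told apart, and the part of Chchd10 in the Mmp11 values was not tested. Mmp19, the gene with the highest level per length, had log2 fold changes of -0.04 ± 0.09 in knockout and -0.11 ± 0.11 in wild type.

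**Figure D4:**
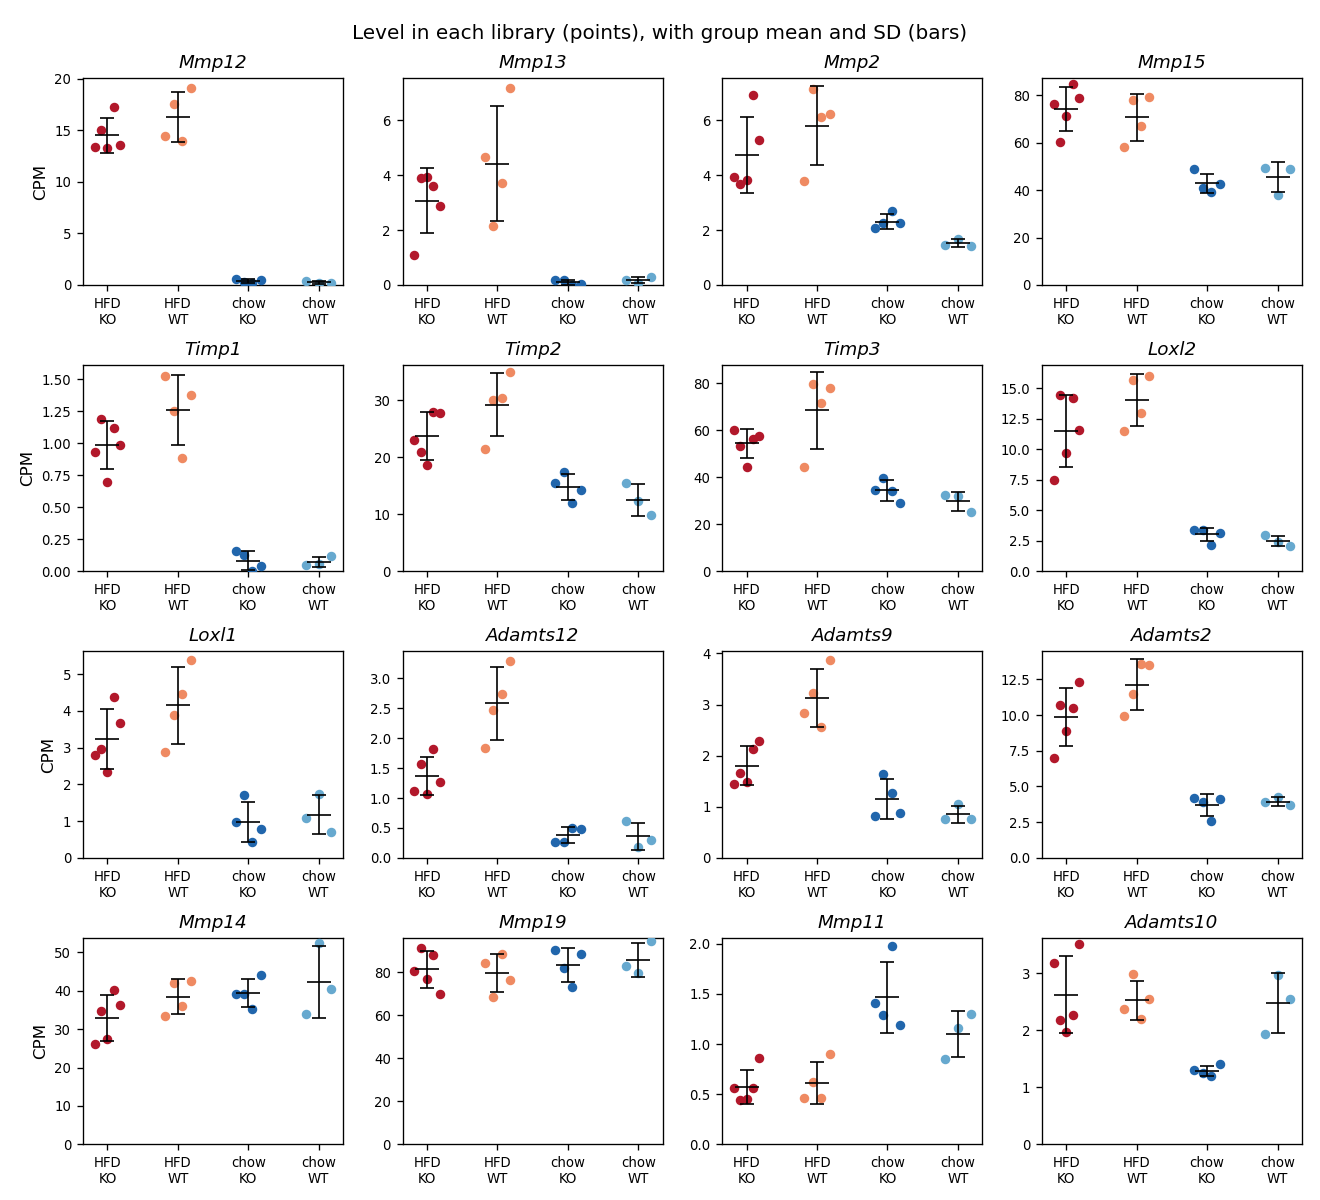
CPM of 16 genes in each library (points) with group mean (horizontal mark) ± SD (bar), for HFD KO (n = 5), HFD WT (n = 4), chow KO (n = 4) and chow WT (n = 3), on linear axes that start at 0. Mmp12 and Timp1 are near 0 in chow and well above it in every HFD library, Mmp14 and Mmp19 overlap across all groups, and Adamts10 is low in chow KO.

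All 3 TIMPs rose in both genotypes, beside 17.4% of all genes in knockout and 15.2% in wild type. Timp1 (GRCm38, chrX:20870166-20874735, plus strand) is the inducible inhibitor that serves as a common marker of liver fibrosis. It had 0.936, 1.19, 0.698, 1.12 and 0.991 CPM in HFD KO livers, against 0.163, 0.129, 0.0 and 0.0442 CPM in chow KO livers. Wild types had 1.53, 1.25, 0.884 and 1.38 CPM on HFD, against 0.047, 0.0582 and 0.118 CPM on chow. The diets were fully separated, with log2 fold changes of 3.40 ± 0.44 in knockout (adjusted p = 1.5e-05, edgeR) and 4.02 ± 0.52 in wild type (adjusted p = 2.4e-05, edgeR). The size of these changes rests on few counts, since Timp1 had 7 counts in all chow KO libraries together and 4 in chow WT. Timp1 overlaps Syn1 on the opposite strand, and Syn1 averaged 0.815 CPM in HFD KO, 0.551 CPM in HFD WT, 0.648 CPM in chow KO and 0.457 CPM in chow WT.

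Timp2 and Timp3 had higher levels per length than Timp1 and smaller fold changes. Timp2, which inhibits MMPs broadly, had 21.5, 30.1, 30.4 and 34.9 CPM in HFD WT livers, against 15.4, 12.3 and 9.82 CPM in chow WT livers. Timp3, which is bound to the matrix and also inhibits ADAM and ADAMTS proteases, had 44.6, 79.9, 71.8 and 77.8 CPM in HFD WT livers, against 32.4, 32 and 25.1 CPM in chow WT livers. HFD WT 1 was the lowest HFD WT library for both genes, yet stayed above every chow WT library. Log2 fold changes in wild type were 1.22 ± 0.19 for Timp2 (adjusted p = 1.5e-04, edgeR) and 1.20 ± 0.17 for Timp3 (adjusted p = 8.6e-05, edgeR). In knockout Timp2 had 18.6 to 28 CPM on HFD, against 12 to 17.4 CPM on chow, and Timp3 had 44.6 to 60.2 CPM on HFD, against 29.1 to 39.9 CPM on chow. The knockout log2 fold changes were 0.67 ± 0.16 for Timp2 (adjusted p = 0.0040, edgeR) and 0.66 ± 0.15 for Timp3 (adjusted p = 0.0027, edgeR).

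Of the 12 ADAMTS proteases tested, 7 rose in knockout (58.3%) and 6 in wild type (50%), beside 17.4% and 15.2% of all genes, and none fell. Adamts2, which removes the amino-terminal propeptide of fibrillar procollagens, had 6.97, 10.7, 8.89, 10.5 and 12.3 CPM in HFD KO livers, against 4.18, 3.92, 2.55 and 4.11 CPM in chow KO livers. Wild-type livers had 9.94, 11.5, 13.6 and 13.5 CPM on HFD, against 3.9, 4.25 and 3.67 CPM on chow. No library crossed between the diets. The log2 fold change of Adamts2 was 1.41 ± 0.17 in knockout (adjusted p = 1.0e-05, edgeR) and 1.62 ± 0.20 in wild type (adjusted p = 1.4e-05, edgeR). Adamts14, the other procollagen N-propeptidase tested, did not pass in either genotype.

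Adamts12 (GRCm38, chr15:11064790-11349231, plus strand) is known for cleaving cartilage oligomeric matrix protein. Its level was 1.12, 1.56, 1.06, 1.81 and 1.26 CPM in HFD KO livers, against 0.272, 0.258, 0.496 and 0.486 CPM in chow KO livers. In wild type the values were 1.83, 2.47, 2.74 and 3.29 CPM on HFD, against 0.612, 0.175 and 0.296 CPM on chow. Both genotypes were separated by diet, with log2 fold changes of 1.86 ± 0.33 in knockout (adjusted p = 3.4e-04, edgeR) and 2.77 ± 0.37 in wild type (adjusted p = 3.6e-05, edgeR). Adamts7, which acts on the same substrate, did not pass.

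Of the 5 proteoglycan-cleaving ADAMTS genes tested, 4 rose in knockout (80%) and 3 in wild type (60%), beside 17.4% and 15.2% of all genes. Adamts9 (GRCm38, chr6:92772699-92943492, minus strand), a versicanase, had 1.45, 1.67, 1.49, 2.13 and 2.28 CPM in HFD KO livers, against 0.815, 1.64, 1.27 and 0.883 CPM in chow KO livers, where the groups overlapped. Wild types had 2.83, 3.23, 2.57 and 3.88 CPM on HFD, against 0.753, 1.05 and 0.769 CPM on chow, a log2 fold change of 1.86 ± 0.28 (adjusted p = 1.1e-04, edgeR). The knockout log2 fold change of 0.64 ± 0.24 (adjusted p = 0.046, edgeR) lost its call in 10 of 16 single-library omissions, with adjusted p up to 0.145 without chow KO 1, and also with no filter (0.0531) and with only the compared groups (0.0762). Adamts1, the proteoglycanase with the highest level per length of the group, averaged 19.4 ± 2.92 CPM in HFD KO and 12 ± 2.3 CPM in chow KO, and 19.9 ± 3.11 CPM in HFD WT and 12.6 ± 4.09 CPM in chow WT (SD). Its log2 fold changes were 0.69 ± 0.17 in knockout (adjusted p = 0.0048, edgeR) and 0.66 ± 0.20 in wild type (adjusted p = 0.017, edgeR), and the wild-type call was lost without HFD WT 4, chow WT 1 or chow WT 3 (adjusted p = 0.0538, 0.0831 and 0.0917). Adamts5, the main aggrecanase of mouse cartilage, rose in knockout by 0.98 ± 0.27 (adjusted p = 0.011, edgeR), and in wild type its log2 fold change was 0.81 ± 0.30 (adjusted p = 0.054, edgeR). It had 3.1 to 5.44 CPM in HFD KO and 1.49 to 3.1 CPM in chow KO. Wild types had 3.78 to 6.0 CPM on HFD and 1.93 to 4.72 CPM on chow, so the diets overlapped in both genotypes. Without chow WT 2 the wild-type difference of Adamts5 was 1.29 (adjusted p = 0.00767), and it also passed without HFD KO 1, HFD WT 1 or chow KO 2 (adjusted p = 0.0479, 0.033 and 0.041), by DESeq2 (adjusted p = 0.034) and by voom (adjusted p = 0.0366).

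Adamts4, another aggrecanase, had at most 1.22 CPM in any library and rose by 1.36 ± 0.49 in knockout (adjusted p = 0.039, edgeR) and by 1.67 ± 0.50 in wild type (adjusted p = 0.018, edgeR). The wild-type call was lost without HFD WT 4 or chow WT 2 (adjusted p = 0.0614 and 0.0711), and the knockout call without HFD KO 2, HFD KO 5, chow KO 1, chow KO 2 or chow KO 4 (adjusted p = 0.0981, 0.0709, 0.118, 0.0596 and 0.0839), by DESeq2 (adjusted p = 0.0561) and by voom (adjusted p = 0.061). Adamts15 did not pass. Adamts13, which trims von Willebrand factor and in liver is made by stellate cells, had 3.78, 5.39, 4.08 and 5.47 CPM in HFD WT livers, against 3.43, 3.26 and 2.9 CPM in chow WT livers. Its wild-type rise of 0.54 ± 0.19 (adjusted p = 0.037, edgeR) was lost without HFD WT 2, HFD WT 4, or chow WT 1, 2 or 3, with adjusted p of 0.103, 0.099, 0.0577, 0.0827 and 0.122, by voom (0.0589) and with only the compared groups (0.0603). In knockout its log2 fold change was 0.11 ± 0.16 (adjusted p = 0.65, edgeR).

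Adamts10 (GRCm38, chr17:33524204-33553782, plus strand), which binds fibrillin microfibrils, rose in knockout. It had 3.18, 2.18, 1.97, 2.27 and 3.5 CPM in HFD KO livers, against 1.3, 1.25, 1.2 and 1.41 CPM in chow KO livers, a log2 fold change of 1.01 ± 0.21 (adjusted p = 0.0014, edgeR). In wild type it had 2.37, 2.99, 2.19 and 2.55 CPM on HFD, against 1.93, 2.97 and 2.54 CPM on chow, a log2 fold change of 0.03 ± 0.23. The chow KO libraries were thus the low ones, and the other 3 groups overlapped. Adamts6, its closest relative, did not pass in either genotype.

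Of the 5 ADAMTS-like genes, 1 rose in knockout (20%) and 3 in wild type (60%), beside 17.4% and 15.2% of all genes. The knockout share was thus near that of all genes. The difference between genotypes passed the test for none of the 5. Adamtsl2, a microfibril-associated protein that in human and mouse is linked to TGF-beta availability, had 7.11, 3.81, 6.62, 9.17 and 9.62 CPM in HFD KO livers, against 5.6, 5.69, 4.18 and 5.43 CPM in chow KO livers. Wild-type livers had 5.73, 14.7, 11.4 and 10.5 CPM on HFD, against 3.72, 5.65 and 4.02 CPM on chow, a log2 fold change of 1.25 ± 0.31 (adjusted p = 0.0060, edgeR). HFD KO 2 lay below all chow KO libraries, and the knockout log2 fold change was 0.47 ± 0.27 (adjusted p = 0.19, edgeR), or 0.63 without that library (adjusted p = 0.0459). Adamtsl3 rose by 2.13 ± 0.54 in knockout (adjusted p = 0.0056, edgeR) and by 2.09 ± 0.60 in wild type (adjusted p = 0.013, edgeR), with at most 0.309 CPM in any chow library, and the wild-type call was lost without chow WT 2 (adjusted p = 0.0684). Adamtsl1 rose by 1.33 ± 0.41 in wild type (adjusted p = 0.021, edgeR) with overlapping groups, a call lost without HFD WT 2, HFD WT 3, chow WT 2 or chow WT 3 (adjusted p = 0.0531, 0.055, 0.0824 and 0.0768) or by voom (adjusted p = 0.0566).

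Lysyl oxidases rose in 3 of 5 cases in knockout (60%) and 4 of 5 in wild type (80%), beside 17.4% and 15.2% of all genes. Loxl2 (GRCm38, chr14:69609068-69695834, plus strand), which cross-links collagen and oxidises type IV collagen, had the highest level per length of the family. It had 7.49, 14.5, 9.74, 14.2 and 11.6 CPM in HFD KO livers, against 3.37, 3.4, 2.2 and 3.14 CPM in chow KO livers. In wild type the values were 11.5, 15.7, 13 and 16 CPM on HFD, against 2.96, 2.45 and 2.07 CPM on chow. No HFD library lay inside the chow range. Log2 fold changes of Loxl2 were 1.91 ± 0.20 in knockout (adjusted p = 1.9e-06, edgeR) and 2.48 ± 0.23 in wild type (adjusted p = 1.2e-06, edgeR).

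Lox, the founding member of the family, had 0.374, 0.782, 0.729, 1.05 and 0.958 CPM in HFD KO livers, against 0.272, 0.388, 0.0708 and 0.221 CPM in chow KO livers, where HFD KO 1 fell inside the chow range. Wild types had 1.34, 0.974, 0.842 and 1.81 CPM on HFD, against 0.188, 0.0 and 0.118 CPM on chow. Lox rose by 1.63 ± 0.45 in knockout (adjusted p = 0.010, edgeR) and by 3.45 ± 0.60 in wild type (adjusted p = 3.5e-04, edgeR). With 20 Lox counts in all chow KO libraries together and 6 in chow WT, the size of these changes rests on few counts. Loxl1, which is tied to elastic fibre upkeep, had 2.87, 3.9, 4.46 and 5.37 CPM in HFD WT livers, against 1.08, 1.75 and 0.71 CPM in chow WT livers. Its log2 fold changes were 1.67 ± 0.32 in knockout (adjusted p = 6.8e-04, edgeR) and 1.81 ± 0.36 in wild type (adjusted p = 0.0012, edgeR). Loxl3 rose in wild type by 1.21 ± 0.38 (adjusted p = 0.022, edgeR), a call lost without HFD WT 2, chow WT 1 or chow WT 3 (adjusted p = 0.0784, 0.0735 and 0.0798) or by voom (adjusted p = 0.0571), and Loxl4 did not pass in either genotype.

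The wider matrix pathway moved on the same diets. Among all genes tested, 17.4% rose and 16.2% fell in knockout, and 15.2% rose and 14.2% fell in wild type. Of 19 matrix substrates tested, 17 rose in knockout and 18 in wild type, and fibronectin (Fn1), which hepatocytes secrete in bulk, fell in both, with list medians on the log2 scale of 1.26 in knockout and 1.89 in wild type. Col1a1, a chain of type I collagen, averaged 41.1 CPM in HFD KO and 3.85 CPM in chow KO, and 58.1 CPM in HFD WT and 3.47 CPM in chow WT, with log2 fold changes of 3.40 ± 0.29 in knockout (adjusted p = 1.4e-06, edgeR) and 4.06 ± 0.34 in wild type (adjusted p = 1.9e-06, edgeR). Col3a1 rose by 2.94 ± 0.20 in knockout and by 3.57 ± 0.24 in wild type. Among 11 collagen-modifying genes 4 rose and 1, Plod1, fell in each genotype, and Serpinh1, the collagen chaperone, rose by 1.95 ± 0.26 in knockout and by 2.38 ± 0.30 in wild type. The list of protease activators and other inhibitors was split, with 5 of 15 rising and 7 falling in each genotype. The risers included Plat, tissue plasminogen activator, with 2.45 ± 0.31 in knockout and 3.0 ± 0.36 in wild type, and Plaur, the urokinase receptor, with 1.37 ± 0.40 in knockout and 2.21 ± 0.48 in wild type. The falls in both genotypes were Plg, Pzp, Serpinf2, Serpine2, Reck, Bmp1 and Furin. Plg encodes plasminogen and Serpinf2 its inhibitor, Pzp a broad protease trap, and Reck a membrane-anchored MMP inhibitor. Other matrix-degrading proteases rose in 6 of 11 cases in knockout and 7 of 11 in wild type, with Ctsk, cathepsin K, at 1.29 ± 0.25 in knockout and 2.10 ± 0.29 in wild type. These lists were chosen with earlier results of these data known.

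Markers of stellate cells and of lipid-associated macrophages, which can make many of these genes, rose in part or most of their lists in both genotypes, where 17.4% of all genes rose in knockout and 15.2% in wild type. In bulk liver RNA, more cells of a type and more RNA per cell cannot be told apart. Of 10 stellate cell and myofibroblast markers, 6 rose in knockout and 8 in wild type, and their summed level was 168 to 217 CPM in HFD KO, 174 to 234 CPM in HFD WT, 114 to 173 CPM in chow KO and 108 to 134 CPM in chow WT. Of 8 lipid-associated macrophage markers, 7 rose in each genotype, with sums of 147 to 243 CPM in HFD KO, 173 to 372 CPM in HFD WT, 45.7 to 59 CPM in chow KO and 45 to 65.9 CPM in chow WT, and Gpnmb rose by 5.43 ± 0.39 in knockout and by 5.95 ± 0.47 in wild type. Kupffer cell markers rose in 1 of 8 cases in knockout and 5 of 8 in wild type, with sums of 215 to 435 CPM in HFD KO, 205 to 444 CPM in HFD WT, 192 to 230 CPM in chow KO and 88.5 to 206 CPM in chow WT. Endothelial markers fell in 3 of 8 cases in knockout and rose in 3 of 8 in wild type, with sums of 171 to 238 CPM in HFD KO, 200 to 271 CPM in HFD WT, 226 to 272 CPM in chow KO and 170 to 210 CPM in chow WT. Cholangiocyte markers rose in 1 of 7 cases in knockout and 3 of 7 in wild type, and of 3 neutrophil markers tested 0 rose in knockout and 2 in wild type. In knockout the shares of Kupffer cell, cholangiocyte and neutrophil markers that rose were thus below that of all genes. Neutrophil sums were 2.52 to 4.43 CPM in HFD KO, 2.86 to 7.7 CPM in HFD WT, 1.06 to 3.09 CPM in chow KO and 0.47 to 0.71 CPM in chow WT, where Mpo was at 0. Hepatocyte markers fell in 4 of 8 cases in knockout and 6 of 8 in wild type. For these falls and those of endothelial markers, the share over all genes was 16.2% in knockout and 14.2% in wild type. The part of these cell types in the differences above was not tested.

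Between genotypes on high-fat diet no matrix-remodelling gene passed the test. edgeR called 0 of 39, where 0.00594% of all genes were called, and DESeq2 and limma voom also called 0 of the members. At an unadjusted p under 0.05 edgeR gave 7 of 39 members (17.9%), all 7 lower in knockout, beside 641 of 16830 genes (3.81%). These were Adamts9, Adamts12, Adamts4, Timp3, Mmp8, Adamtsl2 and Mmp23. The median log2 fold change of the 39 was -0.29, beside 0.00 over all genes, and 31 of 39 were below 0, with a median SE of 0.28. Across all alternatives run, that median lay between -0.37 and -0.21.

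The 3 genes with the smallest p on HFD were all ADAMTS proteases. Adamts9 had 1.45, 1.67, 1.49, 2.13 and 2.28 CPM in HFD KO livers, against 2.83, 3.23, 2.57 and 3.88 CPM in HFD WT livers, and Adamts12 had 1.12, 1.56, 1.06, 1.81 and 1.26 CPM in HFD KO livers, against 1.83, 2.47, 2.74 and 3.29 CPM in HFD WT livers. Every knockout library was below every wild-type library for both genes. The log2 fold change was -0.79 ± 0.22 for Adamts9 (adjusted p = 1.0, edgeR) and -0.91 ± 0.26 for Adamts12 (adjusted p = 1.0, edgeR). Adamts4 had 0.281, 0.612, 0.273, 0.244 and 0.43 CPM in HFD KO livers, against 0.688, 0.522, 0.421 and 1.22 CPM in HFD WT livers, with overlap, and a log2 fold change of -0.91 ± 0.38 (adjusted p = 1.0, edgeR). Adjusted p-values over the alternatives ran between 0.331 and 1.0 for Adamts9 and between 0.38 and 1.0 for Adamts12.

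**Figure D5:**
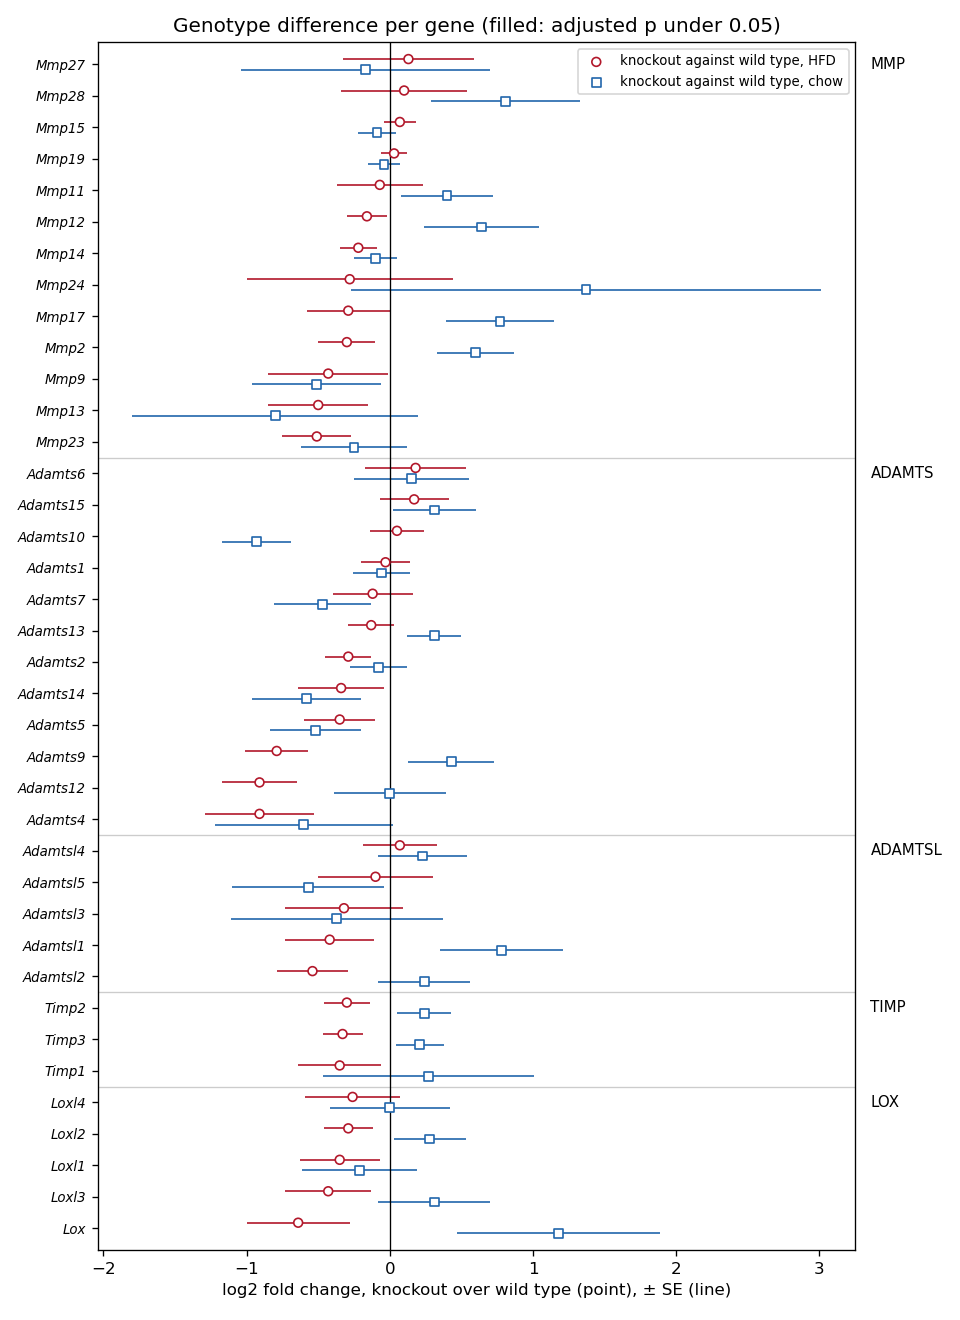
Log2 fold change of knockout over wild type (horizontal axis) ± SE for 38 of the 39 genes tested, on HFD (circles, above) and on chow (squares), grouped by class and ordered by the HFD value. All symbols are open because none passed an adjusted p of 0.05, Mmp8 is left out because its chow WT counts were all 0, and most circles lie left of 0.

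On chow the knockout comparison also called 0 of 39 members by edgeR, where 0.00594% of all genes were called, and 0 by DESeq2 and by limma voom. At an unadjusted p under 0.05 edgeR gave 2 of 39 (5.13%), beside 1001 genes (5.95%). Adamts10 had 1.3, 1.25, 1.2 and 1.41 CPM in chow KO livers, against 1.93, 2.97 and 2.54 CPM in chow WT livers. All knockout libraries were lower, with a log2 fold change of -0.93 ± 0.24 (adjusted p = 0.76, edgeR). Mmp2 had 2.06, 2.24, 2.69 and 2.25 CPM in chow KO livers, against 1.46, 1.69 and 1.42 CPM in chow WT livers, a log2 fold change of 0.60 ± 0.27 (adjusted p = 0.83, edgeR). Mmp17 had 0.567 to 1.08 CPM in chow KO livers, against 0.178 to 0.641 CPM in chow WT livers, with overlap, and a log2 fold change of 0.77 ± 0.38 (adjusted p = 0.85, edgeR). The median of the 39 was 0.15, beside 0.00 over all genes.

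The difference of the knockout effects, HFD minus chow, is the same contrast as the diet effect in knockout minus that in wild type. edgeR called 0 of 39 members and 0% of all genes, and DESeq2 and limma voom called 0 members. At an unadjusted p under 0.05 edgeR gave 9 of 39 members (23.1%), beside 1110 genes (6.60%), and 8 of the 9 were below 0. The smallest p was that of Adamts9, whose effects differed by -1.22 ± 0.37 on the log2 scale (adjusted p = 0.66, edgeR), followed by Adamts10 with 0.97 ± 0.31 (adjusted p = 0.66, edgeR) and Mmp2 with -0.89 ± 0.34 (adjusted p = 0.69, edgeR). The other 6 were Mmp8, Timp3, Lox, Adamtsl1, Mmp17 and Timp2. The median over 39 genes was -0.27, beside 0.00 over all genes, and lay between -0.49 and -0.16 over the alternatives. These comparisons share libraries with those above, so they are no separate evidence.

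No gene of the other lists passed in any genotype comparison. On HFD, matrix substrates had a log2 fold change of knockout over wild type above 0 in 1 of 19 genes (median -0.35), collagen-modifying genes in 5 of 11 (-0.11), protease activators and other inhibitors in 6 of 15 (-0.12) and other matrix proteases in 2 of 11 (-0.09). Among cell markers on HFD it was above 0 for 1 of 10 of stellate cells (-0.15), 0 of 8 of lipid-associated macrophages (-0.32), 2 of 8 of Kupffer cells (-0.13), 2 of 8 of endothelium (-0.39), 0 of 7 of cholangiocytes (-0.66), 0 of 3 of neutrophils (-1.08) and 6 of 8 of hepatocytes (0.05). On chow, 18 of 19 matrix substrates were above 0 (median 0.24), as were 3 of 11 collagen-modifying genes (-0.02), 9 of 15 protease activators and other inhibitors (0.01) and 7 of 11 other matrix proteases (0.07). Among cell markers on chow the count was 9 of 10 for stellate cells (0.25), 3 of 8 for lipid-associated macrophages (-0.06), 8 of 8 for Kupffer cells (0.62), 8 of 8 for endothelium (0.35), 4 of 7 for cholangiocytes (0.00), 3 of 3 for neutrophils (1.81) and 3 of 8 for hepatocytes (-0.03). On HFD the medians of all these lists but that of hepatocytes lay below 0, while on chow they lay on both sides of 0. Within HFD WT, library 1 was below its group mean for 30 of 39 members, with a median deviation of -0.27 on the log2 scale, and library 4 for 5 of 39, with 0.20. In HFD KO, library 3 was below its group mean for 32 of 39 members, with a median deviation of -0.25, and library 4 for 8 of 39, with 0.25. These are deviations of single libraries and not of group means, and their part in the median difference between genotypes was not tested. The part of marker levels in the genotype values was not tested.

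Because the labels give a liver knockout of miR-33, 3' untranslated regions were searched for letters that pair with the miR-33 seed, bases 2 to 8. The loss of miR-33 was not checked here, and genes made by other liver cells are read in a model that targets hepatocytes. The mature mouse miR-33-5p from RefSeq (GRCm38.p6, chr15:82198127-82198147, plus strand) is shown with the seed in capitals, followed by its matches, capitals again, in the longest annotated untranslated region of 4 of the 5 genes that hold one.
miR-33-5p: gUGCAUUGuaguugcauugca
Adamts12: gccagatttccCAATGCAaaaggtaaacc
Adamts5: atgatggcattCAATGCAgttgagaggcc
Mmp2: ttggatatttgCAATGCAgccctcctctg
Mmp17: cacgtaggtgcCAATGCAtgggctcctgc

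Lox was the fifth such gene. The letters CAATGCA were in 5 of the 39 members tested (12.8%) and in none of the other 7 members, against 985 of 13099 genes tested with an untranslated region (7.52%). The regions of the 5 genes were 755 to 6437 bases long, and these shares were not adjusted for length. Log2 fold changes of knockout over wild type on HFD were -0.91 ± 0.26 for Adamts12, -0.35 ± 0.25 for Adamts5, -0.30 ± 0.20 for Mmp2, -0.29 ± 0.29 for Mmp17 and -0.64 ± 0.36 for Lox. On chow they were 0.00 ± 0.39 for Adamts12, -0.52 ± 0.32 for Adamts5, 0.60 ± 0.27 for Mmp2, 0.77 ± 0.38 for Mmp17 and 1.18 ± 0.71 for Lox. None passed on either diet. All 5 were below 0 on HFD, as were 31 of the 39 members tested, and the signs were mixed on chow. A match of the letters does not show that miR-33 acts on a gene, and no other kind of pairing was searched.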

How the data were processed

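Liver RNA of 16 mouse libraries was sequenced after ribosomal RNA depletion. Per the labels' protocols, TopHat2 aligned the trimmed reads and Cuffdiff quantified them; the submitters' processing notes name build mm10. The sources used here give no tool version, annotation or strand setting. The table deposited by the authors holds estimated counts per gene, not scaled to depth or length: library totals differ, 32.8% to 37.9% of values are exactly whole (tolerance 0), and the smallest row total is 10. Its name speaks of FPKM, which these values are not. Per the labels' protocols a small RNA kit and unequal cycle and read lengths are given, which was not reconciled. Overlapping genes can share reads.

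Estimated counts were rounded. The filterByExpr function of edgeR 4.0.16 (R 4.3.3) on the 4 groups kept 16830 genes. One robust quasi-likelihood model with TMM scaling was fitted to all 16 libraries, with 12 residual degrees of freedom. Two-sided p-values were adjusted by Benjamini-Hochberg over all genes tested, with a threshold of 0.05. The SE is the absolute log2 fold change over the square root of F. CPM use TMM-scaled totals and are mean ± SD. Lengths and gene limits come from GENCODE M21 exons; limits equalled those of the table for 43 of 46 genes. Floors cover counting error only, whereas the SE also takes in the spread among libraries. The script was tested on simulated counts. Alternatives were RLE scaling, DESeq2 1.42.0, limma 3.58.1 voom, no filter, a filter of 1 CPM in 3 libraries, the compared groups only, 2 libraries left out, and each library left out. Groups came from the labels, and replicate numbers follow accession order and pair nothing.

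Members and gene lists were chosen with earlier results of these data known. Full values went to members that passed in a diet comparison with at least 1 CPM in the higher group, at most 25, plus a fixed set of 12. In genotype comparisons the 3 with the smallest p were named, and in other lists up to 3 that passed. Other members were named to account for the whole group, after their values were seen.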

Additional observations from a re-analysis of the deposited data

Results flagged for a closer look

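Among 117 groups of 4 or 5 libraries tested over the 39 members, 6 held 1 library that stood apart from the rest by Dixon's criterion, and chance alone flags about 1 in 20. In chow KO, library 3 was low for Adamts2, with 2.55 CPM beside 3.92 to 4.18 CPM in the other chow KO libraries. The same library was low for Adamtsl2, with 4.18 CPM beside 5.43 to 5.69 CPM. In HFD KO, Adamts6 was high in library 4, with 3.66 CPM beside 1.03 to 1.65 CPM, and Mmp27 was low in library 3, with 0.698 CPM beside 1.05 to 1.12 CPM. Mmp28 was high in HFD KO 2, with 0.408 CPM beside 0.212 to 0.244 CPM. Mmp11 was high in HFD KO 5, with 0.859 CPM beside 0.442 to 0.562 CPM, and still lay below every chow KO library.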

How the results depend on the processing

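Counts of risers kept within 1.5 times under every alternative run: in knockout 18 to 22 when 1 library was left out, with 19 by DESeq2 and 20 by voom, beside 21; in wild type 18 to 25, with 18 without HFD WT 2 or chow WT 3, 26 by DESeq2 and 21 by voom, beside 24. Members that fell in knockout numbered 1 to 2 when 1 library was left out, beside 1, and in wild type 0 to 1, with 1 by voom, beside 0; the added gene was Mmp9 in knockout and Mmp11 in wild type. Genotype comparisons called 0 members under every alternative. Of 22 knockout calls 19 held in each alternative that tested the gene, and of 24 wild-type calls 16. The losses were Adamts9, Adamts4 and Mmp8 in knockout, and Loxl3, Adamts1, Adamts13, Adamts4, Adamtsl1, Adamtsl3, Mmp17 and Mmp27 in wild type. Signs turned, all far from a call, for Adamts10 (diet in wild type, -0.125 to 0.184 when 1 library was left out), Mmp14 (diet in wild type, -0.273 to 0.047), Adamts12 (knockout on chow, -0.317 to 0.652, with 0.087 by voom and 0.001 under the stricter filter) and Adamts5 (difference of knockout effects, -0.309 to 0.454). The cause was not tested. No paired analysis was possible because the labels give no replicate numbers. Genes below about 1 CPM rest on few counts per library.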
